A study of Mus musculus with 4 samples.

Results

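Interferon-stimulated neutrophils were the liver neutrophils that carried RNA of the genes switched on by type I interferon. Members were chosen by raw counts of unique molecular identifiers (UMIs) in each cell. A member held at least 1 UMI of Csf3r, at least 5 of Il1b, S100a8 and S100a9 together, and at least 3 of Ifit1, Ifit3 and Rsad2 together. It showed fewer than 3 of the granule genes Camp, Ngp, Ltf and Lcn2, no Cd3e, and at most 1 UMI of Cd79a and Cd79b. The rule found 455 members among 32876 cells (1.38%). Dropping only its interferon clause left 3442 mature neutrophils, of which the members were 13.2%.

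Type I interferon binds the receptor IFNAR1 and IFNAR2, whose kinases JAK1 and TYK2 activate transcription factors. These bind a promoter sequence called the interferon-stimulated response element (ISRE), which drives antiviral genes such as the Ifit, Oas and Schlafen families. Neutrophils are short-lived granulocytes, and cells with such a programme are known in blood, bone marrow, infected tissue and tumours.

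The study compared CD45+ cells of mouse liver in 4 libraries, all from mice given tamoxifen for 1 week. The genotypes were GS(+/delta)Hep, a heterozygous hepatocyte deletion of glutamine synthetase (1 library), URI(+/delta)Hep, a heterozygous hepatocyte deletion of the prefoldin-like protein URI (1 library), and WT (2 libraries). Each library pooled 5 mice, and the labels used here name neither ages nor the driver of recombination. The sorted cells came from the mononuclear layer of a density gradient, a fraction that retains neutrophils only in part. Library totals ran from 24041049 to 51920505 UMIs, and median UMIs per cell from 2659 in WT replicate 2 to 4973 in URI. No full barcode was shared between libraries, while 18.0% to 26.5% of cells shared their droplet barcode with a cell of another library, since the libraries were multiplexed. Levels are CPM: a gene's UMIs summed over the cells of a class in a library, as parts of all UMIs of those cells. The assay counts ligated probes, so levels are compared between cells and never between genes.

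Summed per library, the members resembled neutrophils in genes that the rule did not use. The summed level of 8 neutrophil markers (Cxcr2, Mmp9, Retnlg, Clec4d, Trem1, Mxd1, Slpi and Hdc) was 21346, 22961, 18379 and 23788 CPM in members of GS, WT replicate 1, URI and WT replicate 2. The same order gave 20929, 22450, 17270 and 21574 CPM in the other mature neutrophils, and 633 to 722 CPM in cells gated as monocytes. The 8 monocyte markers summed to 863 to 1736 CPM in members, 1118 to 2287 CPM in other mature neutrophils and 6914 to 9296 CPM in monocytes. The monocytes were gated by these same markers, so their high sum was fixed by the gate and is no separate evidence. That gate also required fewer than 5 UMIs of Il1b, S100a8 and S100a9 together, or none of Csf3r. Among the 8 monocyte markers Cx3cr1 had no UMI in any of these cells, so it gave no information here. At least 2 monocyte markers were present in 109 members (24.0%) and in 619 other mature neutrophils (20.7%). In GS these shares were 33.9% and 21.8%. Neutrophil markers summed to 21508 to 26703 CPM in the remaining members, against 13167 to 18145 CPM in those with at least 2 monocyte markers. Without such cells the share and 2-fold results described below kept their direction, at a GS log2 share ratio of -1.11 and 42 genes at least 2-fold higher, while 5 genes in place of 0 passed for GS members. T cell markers summed to 26.8 to 59.1 CPM in members, against 3597 to 6056 CPM in T cells. NK cell markers reached 377 CPM in GS members, where 4 of 62 cells held at least 2 of them, and 5.87 to 146 CPM in the other libraries. Dendritic cell markers summed to at most 17.6 CPM in members. Doublet calling marked 7 members, 6 of them in WT replicate 2.

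The markers that name the cells are shown by their promoters, since the ISRE is the sequence through which interferon acts. The RefSeq table of build GRCm38.p6 gave 250 bases before and 50 after each start site, read 5′ to 3′ on the gene's strand. Capitals mark the ISRE core GAAANNGAAA on either strand. Rsad2 (ENSMUSG00000020641, chromosome 12, 26442743 to 26456452) encodes viperin, which makes a chain-terminating nucleotide. Its window, chr12:26456403-26456702 on the minus strand, held 1 match, starting 120 bases before the start site. Ifit3 (ENSMUSG00000074896, chromosome 19, 34583119 to 34588982) encodes a partner of the RNA-binding protein IFIT1. Its window, chr19:34583279-34583578 on the plus strand, held 2 matches. Slfn4 (ENSMUSG00000000204, chromosome 11, 83175172 to 83190216) is a Schlafen gene known from myeloid cells, and its window, chr11:83174936-83175235 on the plus strand, held no exact match.
Rsad2: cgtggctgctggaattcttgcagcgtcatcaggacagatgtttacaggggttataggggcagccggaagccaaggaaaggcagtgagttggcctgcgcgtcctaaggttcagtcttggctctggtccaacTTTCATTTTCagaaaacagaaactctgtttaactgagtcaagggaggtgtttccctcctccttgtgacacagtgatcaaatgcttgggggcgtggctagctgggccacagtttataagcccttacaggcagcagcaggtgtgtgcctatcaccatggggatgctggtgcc
Ifit3: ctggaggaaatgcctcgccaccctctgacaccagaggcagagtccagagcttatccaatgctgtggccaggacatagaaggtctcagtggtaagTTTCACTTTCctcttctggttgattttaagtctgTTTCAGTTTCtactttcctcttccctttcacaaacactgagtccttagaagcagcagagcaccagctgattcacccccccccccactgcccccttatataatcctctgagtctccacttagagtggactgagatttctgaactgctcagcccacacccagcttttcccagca
Slfn4: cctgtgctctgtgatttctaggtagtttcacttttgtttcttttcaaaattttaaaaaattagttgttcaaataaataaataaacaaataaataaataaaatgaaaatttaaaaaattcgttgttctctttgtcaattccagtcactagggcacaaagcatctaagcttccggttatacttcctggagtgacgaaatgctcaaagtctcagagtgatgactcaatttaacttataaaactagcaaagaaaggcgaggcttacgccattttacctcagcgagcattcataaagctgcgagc
The window of Oasl1 held no exact match either, and these letters alone do not list every site. The core was present in 1131 of 32851 promoter windows (3.44%) and in 3.99% of 27025 genes. Of the 36 genes that stood at least 2-fold higher in members in every library, as described below, 29 had a window in the table and 16 of those (55.2%) held the core. Among those 16 were the rule's own Rsad2, Ifit3 and Ifit1, which chose the cells. A second sequence searched, the GAS core TTCNNNGAA, was held by 5 of the 29 (17.2%) and by 9.55% of the 27025 genes. Matches are a description of letters, not of binding.

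The share of members among mature neutrophils differed between libraries by more than their counting error, and on this denominator the WT pools stood far apart. In GS 62 of 755 mature neutrophils were members (8.21%, exact 95% interval 6.35% to 10.4%). WT replicate 1 had 139 of 690 (20.1%, 17.2% to 23.3%) and WT replicate 2 had 144 of 1323 (10.9%, 9.26% to 12.7%). URI had 110 of 674 (16.3%, 13.6% to 19.3%), between the WT libraries. Mature neutrophils themselves were 17.8% of cells in WT replicate 2, against 9.62% in GS, 8.14% in WT replicate 1 and 7.41% in URI. Of all cells, members were 0.790% in GS (0.606% to 1.01%), 1.64% in WT replicate 1 (1.38% to 1.93%), 1.21% in URI (0.995% to 1.46%) and 1.93% in WT replicate 2 (1.63% to 2.27%). On that denominator the WT intervals overlapped, WT replicate 2 was highest, and GS and URI both lay below the WT libraries. Among mature neutrophils GS was lowest, below both WT libraries, and its interval overlapped that of WT replicate 2. The log2 ratio to the WT mean (15.5% ± 6.55, SD, n = 2) was -0.92 for GS and 0.07 for URI. The exact two-sided permutation test over libraries gave p = 0.667 for GS and p = 1 for URI, and with 1 library against 2 it cannot go below 0.333. Without WT replicate 1 the GS ratio was -0.41, and without WT replicate 2 it was -1.29; the URI ratio turned from 0.58 to -0.30 between those settings. Intervals cover counting error only.

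**Figure D1:**
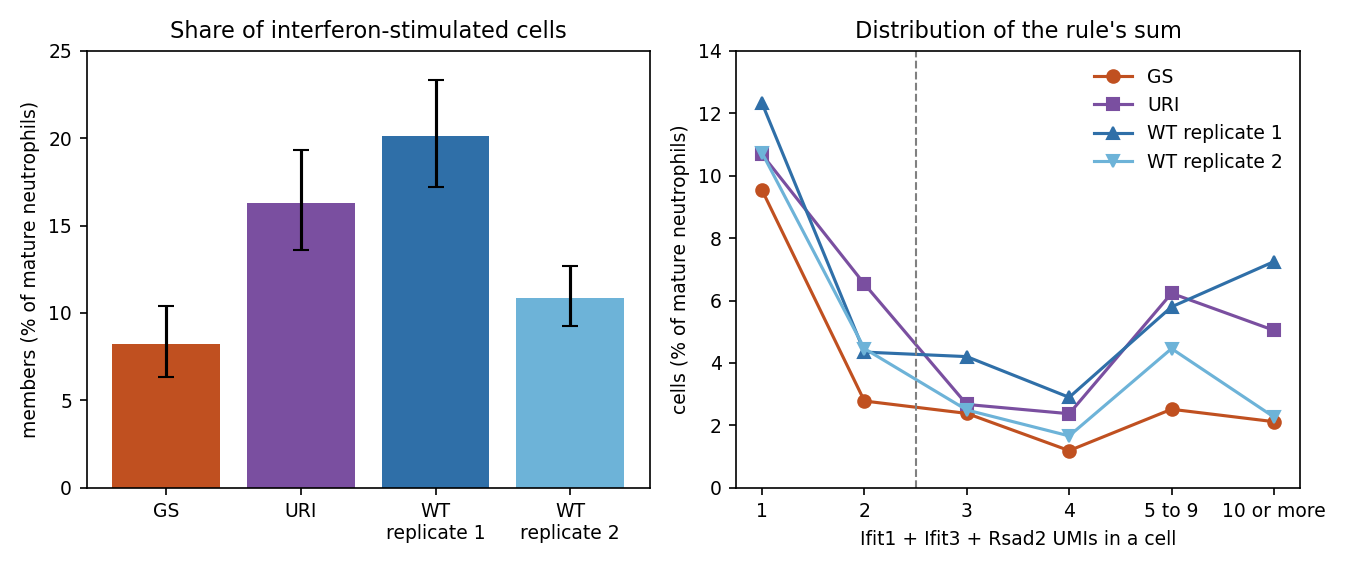
Left: members as a percentage of mature neutrophils in each library (bars from 0, with exact 95% binomial intervals). Right: percentage of mature neutrophils by the summed Ifit1, Ifit3 and Rsad2 UMIs of a cell, with the rule's limit dashed and cells without a UMI left out. WT replicate 1, at 20.1%, stood above WT replicate 2, at 10.9%, and GS was lowest at 8.21%.

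The interferon clause cut a continuous distribution. Of the 3442 mature neutrophils, 2462 held no UMI of the 3 genes, 371 held 1 and 154 held 2, just outside the limit. Just inside it, 98 held 3 and 67 held 4, while 160 held 5 to 9 and 130 held 10 or more. The highest cell of each library held 57 UMIs in GS, 101 in WT replicate 1, 63 in URI and 94 in WT replicate 2. Cells with 10 or more were 7.25% of mature neutrophils in WT replicate 1 and 5.05% in URI, against 2.12% in GS and 2.27% in WT replicate 2. The limit also favoured deeper cells: no member had under 1000 UMIs, against 452 of the other mature neutrophils. Median UMIs were 4272, 3792, 4122 and 2806 in members of GS, WT replicate 1, URI and WT replicate 2, and 3709, 3389, 4072 and 2514 in the others. After each cell was thinned to 1000 UMIs, with at least 1 UMI of the 3 genes required, the shares were 12.1% in GS, 24.4% in WT replicate 1, 19.6% in URI and 18.0% in WT replicate 2. That kept the order, with WT replicate 2 closer to URI.

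Rsad2 was the gene that met the clause in most cells. It had a UMI in 96.7% of members, against 54.5% for Ifit3 and 36.0% for Ifit1. These shares describe how the rule was met, since probe counts do not rank genes by their RNA. In 170 members (37.4%) Rsad2 met the sum alone, 124 members (27.3%) held all 3 genes, and 15 had no Rsad2. In summed members Rsad2 stood at 1243 CPM in GS, 1769 in WT replicate 1, 1398 in URI and 1737 in WT replicate 2, against 31.8 to 65.3 CPM in other mature neutrophils. Those values restate the rule and carry no test.

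Beyond the rule's own genes, members carried a broad antiviral programme and otherwise looked like their neighbours. Because the rule chose the cells by this contrast, every ratio of members to other mature neutrophils is a description within the library, with no test. Of 5631 genes with at least 20 CPM in either group, 36 (0.639%) were at least 2-fold higher in members in every library, on a scale of CPM plus 10. These included the 3 genes of the rule; 30 of the other 33 came from the interferon lists used here. The remaining 3 were Rnf213 (minimum log2 ratio 1.44), Trafd1 (1.08) and H2-T24 (1.17). Over all genes compared the median log2 ratio was -0.11. At any size, 332 genes (5.9%) were higher in members in every library and 1187 (21.1%) were lower in every library.

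Antiviral effectors made up the largest group. Of 38 measured, 16 were at least 2-fold higher in every library, 33 were higher in every library at any size (5.9% of all genes), and the median log2 ratio was 1.18. Ifit3b, a near-identical copy beside Ifit3 whose counts are therefore uncertain, stood at 164, 297, 141 and 187 CPM in members of GS, WT replicate 1, URI and WT replicate 2. In other mature neutrophils it was at 4.70 to 5.23 CPM. Oasl1, an OAS-like protein that restrains translation of Irf7, was at 407, 545, 436 and 453 CPM in members and 54.2, 68.1, 56.3 and 64.3 CPM in the others. The lowest member value of both genes lay far above the highest value of the other cells. Isg15, the ubiquitin-like modifier, was at 528, 548, 518 and 689 CPM in members and 63.1, 79.0, 94.7 and 132 CPM in the others, in the same library order. Cmpk2, a mitochondrial nucleotide kinase encoded beside Rsad2, stood at 284 to 614 CPM against 40.0 to 64.4. Ifit2 reached 45.0 to 133 CPM in members from few cells, 9.23% of members having a UMI, and in GS 1 cell gave 13 of its 21 UMIs. Oas3 and Oas2, synthetases of the 2-5A messenger that activates RNase L, had log2 ratios of 1.77 to 2.30 and 1.54 to 2.19. Herc6, the mouse ligase for ISG15, had 1.92 to 3.19, and Isg20, an exonuclease, 1.58 to 2.00. At the other end, Ifitm1 and Ifitm2, membrane proteins that block viral entry, had log2 ratios between -0.29 and 0.14, while Ifitm3 had 0.51 to 1.04. Mx1 and Mx2 were not analysed here.

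**Figure D2:**
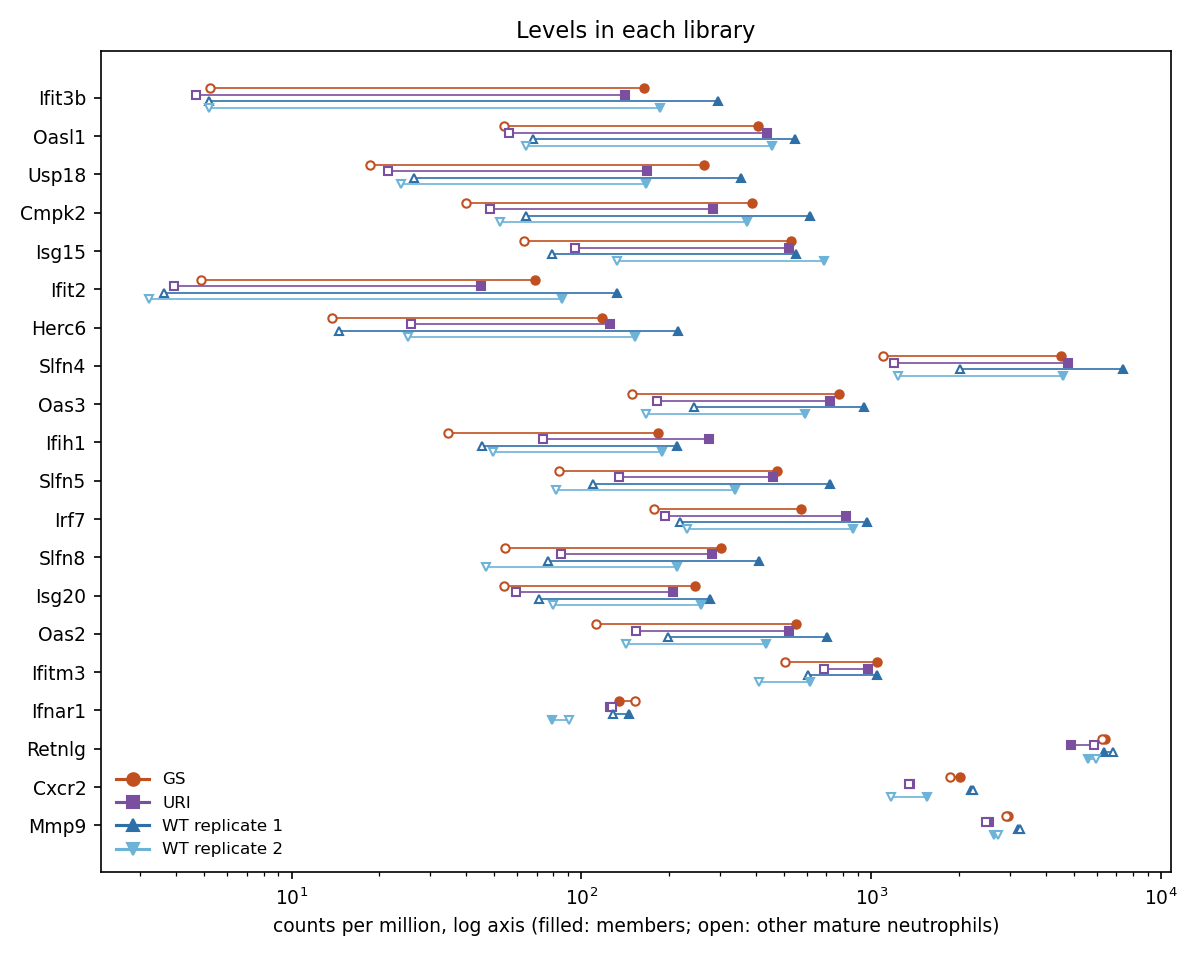
CPM (log axis) of genes in members (filled) and in other mature neutrophils (open), joined within each library. The upper 15 genes were the highest outside the rule; Ifitm3, Ifnar1, Retnlg, Cxcr2 and Mmp9 are shown for comparison, and the pairs of the last 4 lie close together.

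The Schlafen family, interferon-inducible proteins of immune cells, was higher in members for all 6 measured genes in every library (5.9% of all genes were), with 3 of them past 2-fold. Slfn4 stood at 4514 CPM in GS members, 7363 in WT replicate 1, 4775 in URI and 4591 in WT replicate 2, and at 1094, 2020, 1197 and 1232 CPM in the other cells. Its log2 ratio varied little, from 1.86 to 2.04, although both levels were highest in WT replicate 1. Slfn5 and Slfn8 had ratios of 1.69 to 2.60 and 1.61 to 2.28. Slfn1 (0.59 to 0.93) and Slfn2 (0.38 to 0.59) were higher in members by less.

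Cytosolic sensors of nucleic acid were split. Of 13 measured, 4 were at least 2-fold higher in every library: Ifih1, which encodes the RNA sensor MDA5 (1.74 to 2.11), Ddx58, which encodes RIG-I (1.31 to 1.69), Zbp1 (1.53 to 2.10) and Ifi204 (1.18 to 1.96). The DNA sensor gene Aim2 had ratios of -0.69 to -0.10, and Tmem173, which encodes the adaptor STING, -0.60 to 0.27. Among the interferon-inducible GTPases, which act on the vacuoles of intracellular pathogens, all 10 measured were higher in every library, as were 5.9% of all genes, and 4 passed 2-fold: Igtp, Ifi47, Irgm1 and Gbp2. Gbp2 was at 115, 344, 184 and 140 CPM in members and at 48.2, 52.5, 45.8 and 31.0 CPM in the others.

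Genes of interferon signalling differed by position in the pathway. Irf7, the transcription factor that amplifies the response, stood at 571, 966, 815 and 867 CPM in members and 178, 219, 195 and 231 CPM in the others. Usp18, which removes ISG15 and blocks IFNAR2 as feedback, was at 167 to 354 CPM against 18.7 to 26.5. Stat2 passed 2-fold in every library (1.21 to 2.03), whereas Irf9 (0.46 to 1.09) did not. Receptors and kinases lay near equal: none of 9 passed 2-fold, with Ifnar1 at -0.18 to 0.17, Ifnar2 at -0.28 to 0.00 and Jak1 at -0.26 to 0.23. Of 20 genes for interferons themselves, 19 had no UMI in members. Ifng alone was seen, at 0 to 47.3 CPM in members and 30.1 to 45.8 CPM in the others.

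MHC class I genes were slightly higher. None of the 14 listed passed 2-fold in every library, although H2-T24, a class I gene outside the list, did. In every library 9 of 14 were higher (5.9% of all genes), among them the peptide transporter Tap1 at 335, 379, 362 and 466 CPM against 158, 151, 200 and 251. Cd274, which encodes PD-L1, was at 62.3, 104, 168 and 155 CPM in members and 46.7, 26.0, 67.7 and 105 CPM in the others, a log2 ratio of 0.35 to 1.66. Maturity genes did not separate the groups: none of 26 passed 2-fold, with Retnlg at -0.25 to 0.03, Mmp9 at -0.04 to 0.03 and the chemokine receptor gene Cxcr2 at -0.03 to 0.42. The NF-kB response was also near equal, with none of 21 past 2-fold and a median of -0.03. Nfkbia, its inhibitor, had ratios of -0.29 to 0.42 and Cxcl2, a neutrophil chemokine, -0.49 to 0.39. Il1rn, the interleukin-1 receptor antagonist, was higher in every library by 0.03 to 0.69. Genes of cell death and survival (0 of 14 past 2-fold, median 0.00), the oxidase and metabolism (0 of 14, 0.03) and immediate early responses (0 of 18, -0.04) lay near equal too.

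**Figure D3:**
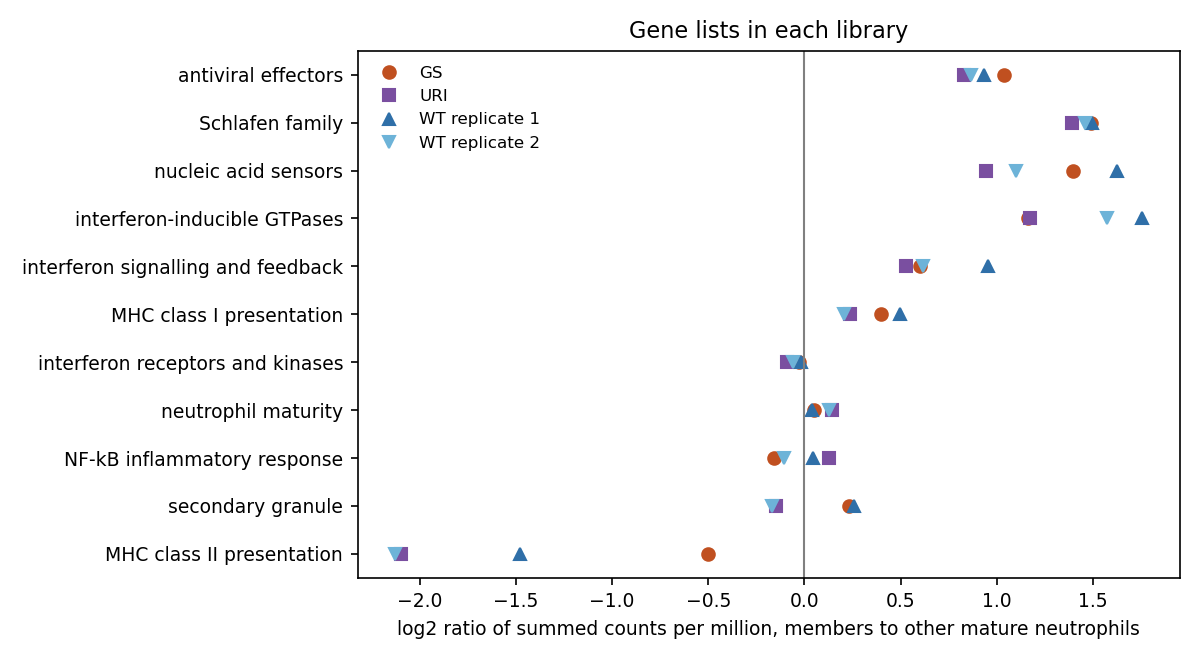
Log2 ratio of the summed CPM of each gene list, members to other mature neutrophils, 1 point per library. The 4 antiviral and GTPase lists at the top lie between 0.83 and 1.76, receptors and kinases, maturity and NF-kB genes near 0, and MHC class II genes below 0.

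The genes lowest in members are known from T cells, B cells and antigen-presenting cells. Trac, Igkc, H2-Aa and H2-Eb1 were the 4 genes at least 2-fold lower in every library (0.071%), and all 5 measured MHC class II genes were lower in every library, as were 21.1% of all genes. Igkc was at 16.4 to 43.6 CPM in members and 90.2 to 252 CPM in the others. With cells under 1000 UMIs left out, no gene was 2-fold lower in every library. Cd74 in GS members came largely from 1 cell, which held 89 of 103 UMIs.

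The programme was graded along the rule's sum. Interferon load is the summed level of 81 genes in the effector, Schlafen, sensor and signalling lists, without the rule's genes. It was 13351 ± 1451 CPM (SD, n = 4 libraries) in mature neutrophils with none of the rule's UMIs and 17572 ± 1062 CPM with 1 or 2. Past the limit it was 21395 ± 1170 CPM with 3 to 4, 26938 ± 3827 CPM with 5 to 9 and 41752 ± 6722 CPM with 10 or more. Cells on either side of the limit overlapped: the load in cells with 2 UMIs was 1.93%, 1.91%, 2.02% and 1.70% of all UMIs in GS, WT replicate 1, URI and WT replicate 2. Cells with 3 UMIs had 1.79%, 2.07%, 2.22% and 2.07% in the same order. Per cell, 61.8% to 67.3% of members lay above the 95th percentile of cells without the rule's UMIs, and so did 6.72% to 8.87% of the other mature neutrophils. Oasl1 went from 51.0 ± 12.4 CPM (SD, n = 4) at 0 UMIs to 919 ± 215 CPM at 10 or more, and Isg15 from 73.4 ± 19.6 to 1188 ± 188 CPM. Over the same cells Retnlg went from 6317 ± 375 to 5339 ± 921 CPM and the NF-kB list from 23933 ± 4560 to 23036 ± 7356 CPM. Monocyte markers were at 1513 ± 535 CPM at 0 UMIs, 1842 ± 962 CPM at 3 to 4 and 675 ± 202 CPM at 10 or more.

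**Figure D4:**
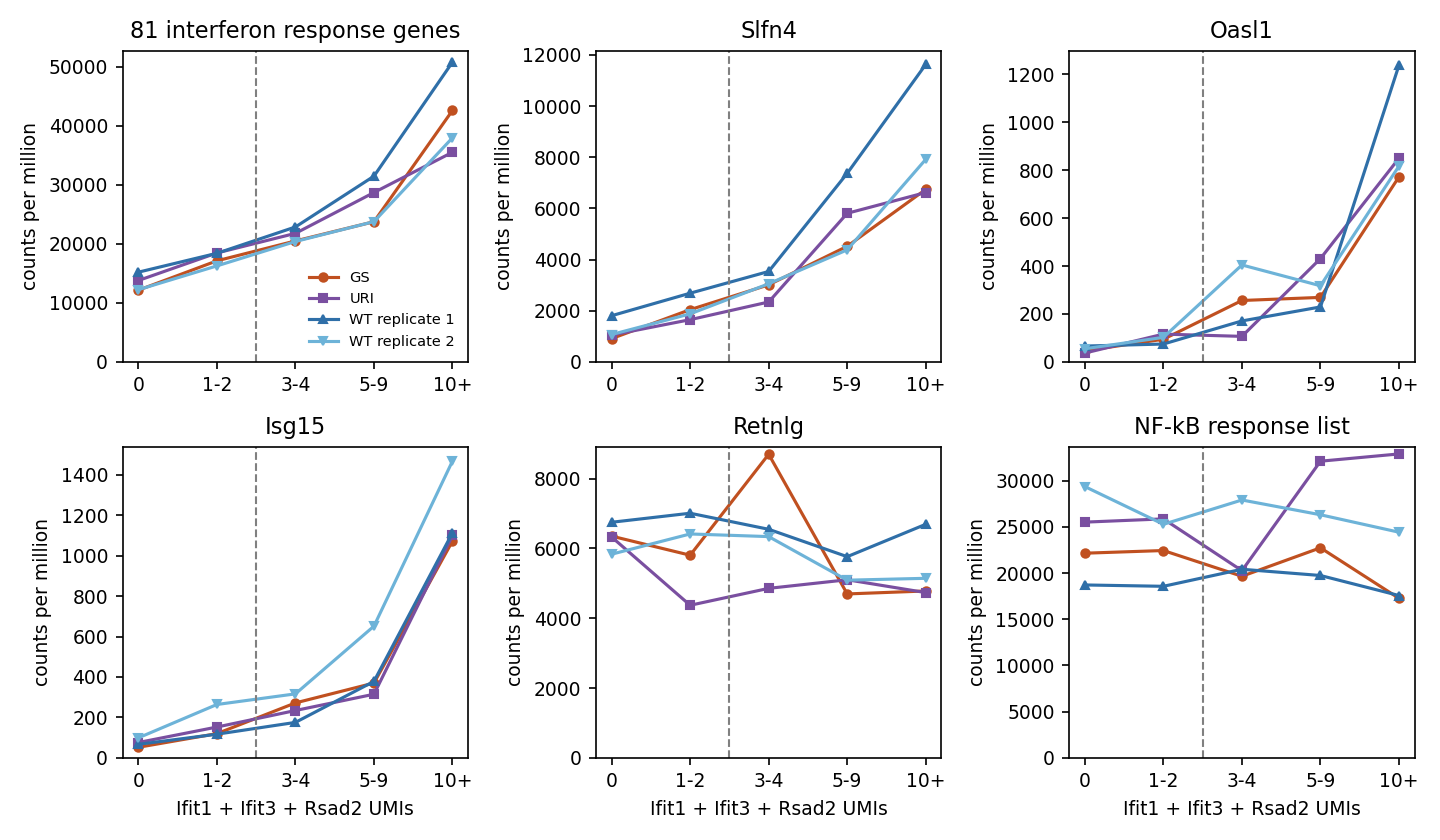
CPM of the 81-gene interferon load, of 3 interferon-stimulated genes, of Retnlg and of the NF-kB list in mature neutrophils, by summed Ifit1, Ifit3 and Rsad2 UMIs per cell, 1 line per library; the dashed line is the rule's limit. The interferon load goes from a mean of 13351 CPM at 0 UMIs to 41752 CPM at 10 or more, while Retnlg stays between 4372 and 8700 CPM.

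Cxcl10, the chemokine that draws CXCR3-bearing T cells, was carried by few members. Its level was 88.6, 163, 80.2 and 174 CPM in members of GS, WT replicate 1, URI and WT replicate 2, and 85.9, 8.32, 64.6 and 25.9 CPM in the others. A UMI was found in 4, 7, 6 and 11 members in that order, and a single cell gave 40.7% to 56.1% of the UMIs. In GS and URI the groups differed little, while in the WT libraries members stood higher. Cxcl11 was not analysed here.

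Depth was checked by thinning each cell to 1000 UMIs. Isg15 then had a UMI in 30.7%, 28.8%, 33.6% and 40.3% of members and in 6.25%, 7.66%, 6.99% and 9.28% of the other mature neutrophils, in the order GS, WT replicate 1, URI and WT replicate 2. Without thinning 50.0% to 62.7% of members and 15.6% to 20.2% of the others had one. Thinning left out 452 other mature neutrophils under 1000 UMIs and no member. Slfn4 had a UMI in 82.3% to 88.5% of members and 51.5% to 64.8% of the others (91.9% to 96.4% and 67.5% to 81.5% without thinning), and Cxcr2 in 67.4% to 85.5% and 65.0% to 81.2% (88.2% to 95.2% and 72.5% to 83.9% without thinning). T cells, which lack Slfn4, held 1.91 to 7.59 CPM of it even when they carried the rule's UMIs. Free RNA from barcodes under 100 UMIs held 109 to 174 CPM of the 3 rule genes, and other mature neutrophils held 42.6 to 84.0 CPM. Members held 1844 to 2976 CPM, a level that the rule itself set, so it says nothing about free RNA in them.

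The interferon-stimulated genes of members were set beside those of T cells in the same libraries, and no difference passed the test. At least 3 UMIs of the 3 rule genes were found in 3.43%, 4.97%, 6.43% and 3.34% of T cells in GS, WT replicate 1, URI and WT replicate 2, and in 6.33% to 11.5% of monocytes. B cells (0.255% to 1.04%) and NK cells (0.818% to 0.994%) reached it rarely. Rsad2 gave 64.7% ± 4.14 (SD, n = 4) of the rule's UMIs in members and 20.3% ± 2.79 in such T cells, a gap of 42.8 to 45.9 percentage points in every library. These UMIs chose the cells, so that gap is a description and supports nothing further. Slfn4 was at 4514 to 7363 CPM in members and 80.0 to 444 CPM in such monocytes. The latter were only 5 cells in GS, 15 in WT replicate 1, 12 in URI and 14 in WT replicate 2. Oasl1 stood at 407 to 545 CPM in members and 60.6 to 110 CPM in T cells, a mean fold of 5.43 on a scale of CPM plus 10, higher in 4 of 4 libraries. Oas3 was likewise higher in 4 of 4 libraries (592 to 946 against 281 to 398 CPM). Isg15, Slfn8 and Herc6 lay the other way in every library, with Slfn8 at 214 to 411 CPM in members and 429 to 594 CPM in T cells. The summed interferon load was close, at 25385 to 34742 CPM in members and 21655 to 25950 CPM in T cells. That sum includes Slfn4, at 4514 to 7363 CPM in members and 1.91 to 7.59 CPM in such T cells. The load without Slfn4 was not compared. For each of these 6 genes and the load, as for Ifit3b, Slfn1, Cmpk2 and Rtp4, the exact paired sign-flip permutation test over 4 libraries gave p = 0.125, the smallest it can give. Adjusted over the 16 values compared it was 0.182, so none could pass. By the same test the other values compared (Irf7, Usp18, Cxcl10, Isg20 and Slfn5) gave an adjusted p of 0.333 to 0.875. This comparison was chosen after its values were seen, and T cells were deeper, with medians of 3759 to 6334 UMIs.

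**Figure D5:**
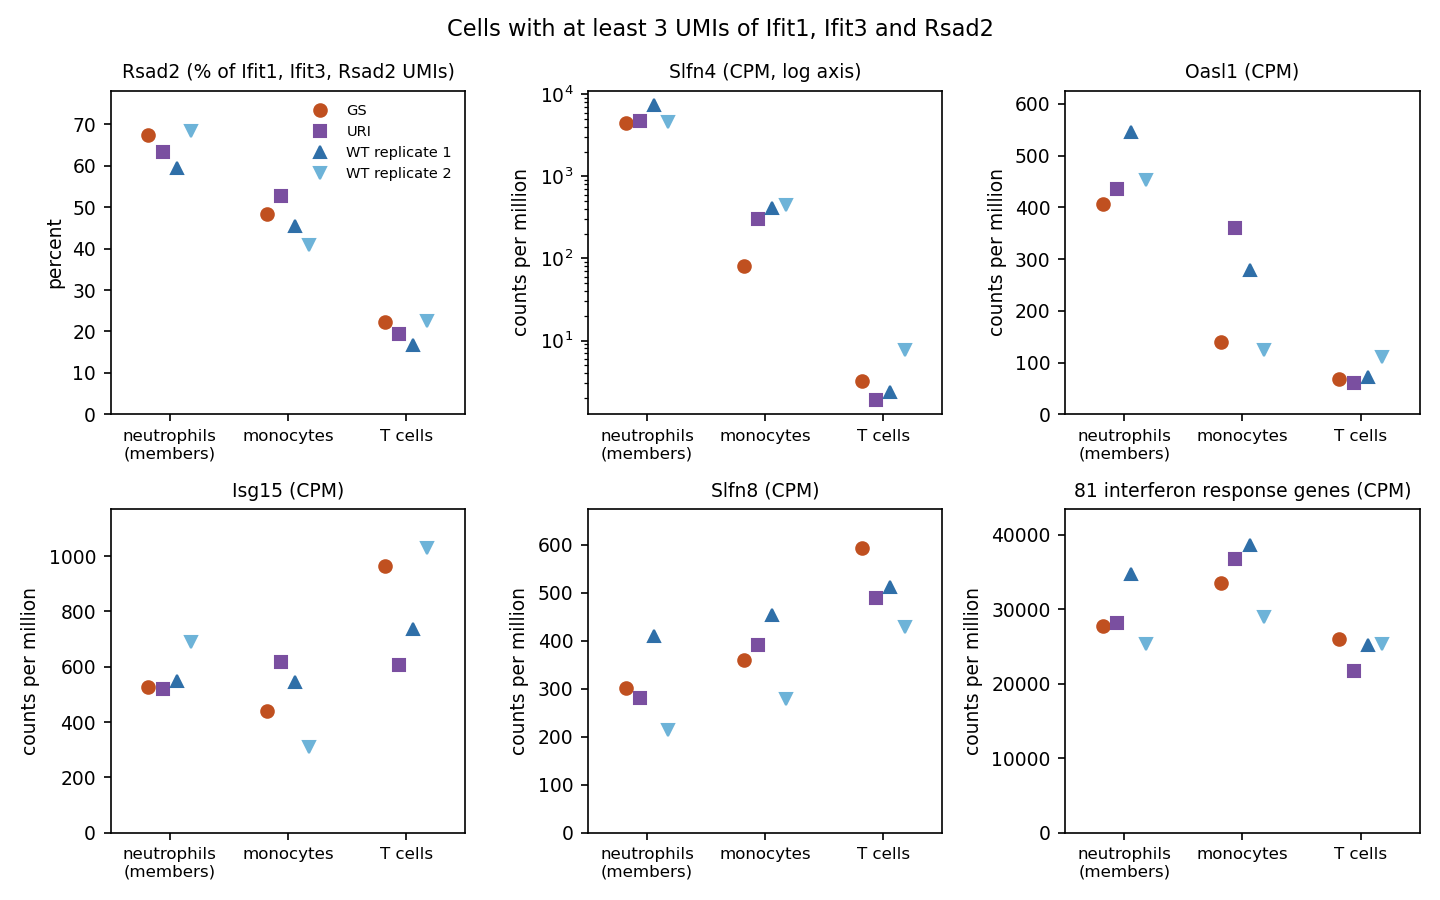
Neutrophils (the members), monocytes and T cells with at least 3 UMIs of Ifit1, Ifit3 and Rsad2, 1 point per library: the Rsad2 percentage of those UMIs, CPM of Slfn4 (log axis), Oasl1, Isg15 and Slfn8, and the 81-gene load. Rsad2, Slfn4 and Oasl1 are highest in neutrophils, while Slfn8 is highest in T cells in all 4 libraries. Each monocyte point rests on 5 to 15 cells.

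The genotypes were compared first over all mature neutrophils, so that the interferon clause did not choose the cells. In GS the level of Rsad2 was 156 CPM, against 462 and 275 CPM in WT replicates 1 and 2, and 264 CPM in URI. Ifit3 was at 43.6 CPM in GS, 232 and 89.9 CPM in WT and 115 CPM in URI. Slfn4 was at 1443 CPM in GS, 3284 and 1654 CPM in WT and 1793 CPM in URI. GS lay below both WT libraries for all 3 genes, and WT replicate 1 lay well above WT replicate 2. In edgeR's quasi-likelihood fit the log2 change of GS against WT was -1.95 (SE 0.47, adjusted p = 0.190) for Ifit3, -1.31 (SE 0.43, adjusted p = 1) for Rsad2 and -0.84 (SE 0.43, adjusted p = 1) for Slfn4. None passed 0.05, and WT replicate 1 set much of their size. Without it the GS changes were -1.07, -0.84 and -0.22, and without WT replicate 2 they were -2.50, -1.66 and -1.28. For URI the changes were -0.71, -0.70 and -0.69, each with edgeR's adjusted p = 1.00. Without WT replicate 1 these were 0.17, -0.24 and -0.06, and without WT replicate 2 -1.26, -1.06 and -1.13. Of 41 antiviral effectors, 20 were below both WT libraries in GS, with a median log2 change of -0.33, where 22.7% of all 9552 genes were below both. In URI 9 of 41 were below both, against 13.1% of all genes, and 12 were above both, against 51.9%. Among the nucleic acid sensors of URI 12 of 15 lay above both WT libraries (median log2 change 0.48), and among maturity genes 11 of 26 lay below both (median -0.43). In bulk sums of this kind fewer stimulated cells and less RNA per cell cannot be told apart.

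No gene passed 0.05 for GS in mature neutrophils (0% of those tested), with 186 at an unadjusted p under 0.05 and none by DESeq2. For URI 7 genes passed (0.0733%), none from the interferon lists. Eif2s3y and Ddx3y are Y-linked genes, and the labels used here do not give the sex of the pooled mice. Eif2s3y was at 108 CPM in URI, 1.98 and 21.8 CPM in WT. G0s2, which encodes an inhibitor of lipolysis, fell by 2.15 on the log2 scale (SE 0.45, adjusted p = 0.0280), from 538 and 1067 CPM in WT to 209 CPM in URI. Igha, an immunoglobulin gene, fell by 2.80 (SE 0.48, adjusted p = 0.00121), from 81.3 and 131 CPM to 17.6 CPM. Few cells carried Igha: 44 of 690 in WT replicate 1, 116 of 1323 in WT replicate 2 and 36 of 674 in URI. In WT replicate 1 a single cell gave 47 of 205 UMIs, and the source of this RNA was not tested. Tnip3 rose from 1.19 and 3.96 to 21.5 CPM, with 66 UMIs in 19 URI cells. Ccl24 and Ccna2, at 0 UMIs in both WT libraries, came mainly from 1 URI cell each, with 27 of 28 and 28 of 32 UMIs. With DESeq2 only 1 of the 7 calls was made, Igha, and with the other scaling, without a filter on low counts, or without doublets or cells with 2 monocyte markers none was. The log2 changes stayed about as large over these settings: -1.999 to -2.24 for G0s2, -2.61 to -2.84 for Igha and 2.89 to 3.09 for Eif2s3y. Without WT replicate 2 they were -1.62, -2.46 and 5.48, and without WT replicate 1 -2.53, -3.07 and 2.12.

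Within members no gene passed for GS (0% of 5948 genes), with 190 at an unadjusted p under 0.05, a lowest adjusted p of 0.542 and none by DESeq2. For URI 2 genes passed (0.0336%), the Y-linked Ddx3y (adjusted p = 0.00282) and Eif2s3y (adjusted p = 0.0499). Ddx3y was at 188 CPM in URI members, 5.03 and 13.5 CPM in WT and 52.5 CPM in GS. The sex of the pools and the genotype cannot be told apart here. Among effectors 17 of 39 lay below both WT libraries in GS members (29.5% of all genes did) and 14 of 39 in URI members (21.5% of all genes). Of the 15 signalling genes 9 lay below both in GS, with a median log2 change of -0.45. Ifit3 stood at 371 CPM in GS members, 939 and 615 CPM in WT and 618 CPM in URI, a log2 change of -1.14 (SE 0.44, adjusted p = 0.999). Irf7 was at 571 CPM in GS, 966 and 867 CPM in WT, a change of -0.75 (SE 0.41, adjusted p = 0.999). Of 22 NF-kB genes 14 lay above both WT libraries in URI members, where 40.5% of all genes did; Nfkbia was at 4712 CPM in URI, 2031 and 3215 CPM in WT (log2 change 0.72, SE 0.40, adjusted p = 0.999). Of 7 monocyte markers 6 also lay above both WT libraries in URI members (40.5% of all genes). Of 8 neutrophil markers 6 lay below both there (21.5% of all genes). Their part in the NF-kB count was not tested. All 4 measured NK cell markers lay above both WT libraries in GS members, where 37% of all genes did. In URI members all 4 lay below both, where 21.5% of all genes did. They came from few cells: 1 GS cell gave 25 of 28 UMIs of Eomes and 1 gave 15 of 27 of Prf1. Their part in the GS values was not tested. Each fit took its spread from the 2 WT libraries, with 1 residual degree of freedom. It assumed that a lone knockout library varied as they did. edgeR drew each gene's spread towards a trend over all genes, so SE and p do not measure that gene's own WT spread. For GS mature neutrophils the SE was 0.43 for Cd14 (244 and 690.5 CPM in WT) and 0.42 for Il1b (10329 and 9039 CPM). The labels do not say whether the pools came from separate cohorts, so the spread between the WT libraries may be in part technical. The WT pools also differed in Y-linked RNA. Ddx3y was at 3.97 CPM in mature neutrophils of WT replicate 1 and 51.2 CPM in those of WT replicate 2.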

How the data were processed

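Single cells from liver were fixed, hybridised to a mouse transcriptome probe set and multiplexed, per the labels' protocols. The deposited matrices hold whole-number UMI counts per gene and barcode, made with Cell Ranger 8.0.0 on mm10, per the submitters' processing notes. Barcodes with at least 500 UMIs, 250 genes and at most 10% mitochondrial UMIs were kept, and doublets stayed in. Scrublet (scanpy 1.11.5) called doublets for one alternative; in WT replicate 1 its automatic threshold marked 0 cells, so the median threshold of the other libraries, 0.187, was used, a choice made after seeing the data. UMIs were summed per library and tested with edgeR 4.0.16 (quasi-likelihood, TMM, filterByExpr, Benjamini-Hochberg over all genes tested, 0.05), with DESeq2 1.42.0 as an alternative. The fit was also run on simulated data in which every gene had the same spread and the WT libraries differed only in depth. That setting is simpler than these data, so it does not bear on the calls made here. Members against other mature neutrophils were described on log2(CPM + 10) among genes of at least 20 CPM. Repeated symbols were summed.

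Genes named were members of the fixed lists, up to 10 genes per fit called by edgeR, averaging 20 CPM or more, with the knockout value outside both WT values, and the 15 highest and 10 lowest outside the rule. Ccl24, Ccna2 and Tnip3 fell outside it, and they, Rnf213, Trafd1 and H2-T24 were named after their values were seen. Members and lists were chosen with earlier results of these data known. Depth was 304828 to 596400 UMIs summed over members per library. The ISRE and GAS cores were searched in RefSeq promoter windows. 1 gene of the signalling list is not reported here.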

Additional observations from a re-analysis of the deposited data

How the results depend on the processing

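The share of members kept its value within the WT spread (0.63, SD on the log2 scale) under every alternative for GS (-1.29 to -0.41) and for URI (-0.30 to 0.58); GS stayed below the WT mean throughout, and the URI sign differed between settings. The count of genes at least 2-fold higher in members in every library was 36 and ranged from 36 to 48 over the alternatives, 37 to 44 when a library was left out; 34 to 36 of the 36 recurred in each. The genes called between genotypes were few and moved with the settings. In members GS went from 0 to 9 without a filter on low counts, 1 without doublets and 5 without cells with 2 monocyte markers. URI members went from 2 to 0 with DESeq2, 0 with RLE size factors, 7 without a filter and 6 without cells with 2 monocyte markers. In all mature neutrophils URI went from 7 to 1 with DESeq2 and to 0 with RLE size factors, without a filter, without doublets and without cells with 2 monocyte markers, and GS stayed at 0. The cause was not tested. Leaving out WT replicate 1 turned the Ifit3 change of URI in mature neutrophils from -0.71 to 0.17, and leaving out WT replicate 2 gave -1.26. Without 1 WT library no residual degree of freedom is left, so only log2 changes were computed there. No paired analysis was possible because the groups share only replicate number 1. The 62 to 144 members per library limit the depth: 3 UMIs in GS members equal 9.84 CPM.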
